A study of Mus musculus with 66 samples.

Results

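Gene expression in the mouse bladder cancer cell line BC57 was compared with that in mouse normal urothelium, with both samples fixed in formalin and embedded in paraffin and with 2 ng of total RNA taken into each Ovation SoLo library. The comparison was chosen by sample, preservation, kit and input, and it holds 3 BC57 and 3 urothelium libraries, which is 6 of the 66 libraries of the series, with all 39179 genes of the count table. Per the labels, BC57 is a single cell line grown in culture as 1 pellet, and the urothelium came from 9 mice. Each sample was divided into 2 parts, of which one was frozen and the other was kept in buffered formalin for 24 hours, embedded, and cut for RNA isolation. Strain, sex, age and genotype of the mice, and how tissue of the 9 mice was combined, are not stated in the sources used, and the labels name no treatment or engineered allele for either sample. The labels do not say whether the 3 libraries of a group come from separate extractions, and they were treated here as repeat libraries of 1 sample. P-values therefore measure only the spread between these libraries, which may be technical, and not the spread between mice or cultures. Fresh-frozen (FF) libraries of 2 ng, fixed (FFPE) libraries of 250 pg and poly(A) libraries of 1 µg frozen RNA, each 3 of BC57 and 3 of urothelium, were used only to show where the fixed 2 ng comparison differs.

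The urothelium is the layered epithelium of the bladder. Its umbrella cells carry plaques of uroplakins on their outer membrane, its basal cells carry keratin 5 and the transcription factor p63, and it divides rarely in a healthy adult. Bladder cancers are often sorted by how much of the luminal programme (uroplakins, Gata3, Pparg, Foxa1) or of the basal and squamous programme (keratins 5, 6 and 14) they keep. Formalin cross-links and fragments RNA, and the Ovation kit primes at random positions and depletes ribosomal sequences, so that transcripts without a poly(A) tail are also read.

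The fixed 2 ng libraries held between 2605346 and 4072971 counts each, of which 79.8% to 80.8% fell on protein-coding genes. Levels are given as CPM, which are counts scaled by TMM to a common library size, in the order of libraries 1 to 3 of a group, and fold changes as log2 of BC57 over urothelium, so that a positive value is higher in BC57. A gene passed the test at an adjusted p under 0.05 (edgeR quasi-likelihood test, Benjamini-Hochberg over all genes tested). After low counts were removed, 14530 genes were tested and 11183 passed (77%). Of these, 5326 were higher in BC57 (36.7%) and 5857 were lower (40.3%), with a median log2 fold change of -0.07 over all genes tested. Changes of at least 2-fold that passed numbered 7509 (51.7%), 3346 of them higher (23%) and 4163 lower (28.7%). Changes of at least 8-fold were met in 760 higher genes (5.23%) and in 1803 lower genes (12.4%). The BC57 and urothelium libraries did not overlap in 11288 genes (77.7%). These shares are the background against which each group of genes is read. Precision rose with level. Among genes at 1 to 5 CPM, 69.6% passed with a median standard error of 0.50 log2 units, and among genes over 100 CPM, 89.1% passed with a median standard error of 0.09. Repeat libraries correlated at 0.976 to 0.980 (BC57) and 0.966 to 0.968 (urothelium) over genes, and differed by more than sampling noise (chi-square per degree of freedom 2.06 to 2.92). No library was thus a copy of another, and n = 3 counts libraries, not mice or cultures.

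**Figure D1:**
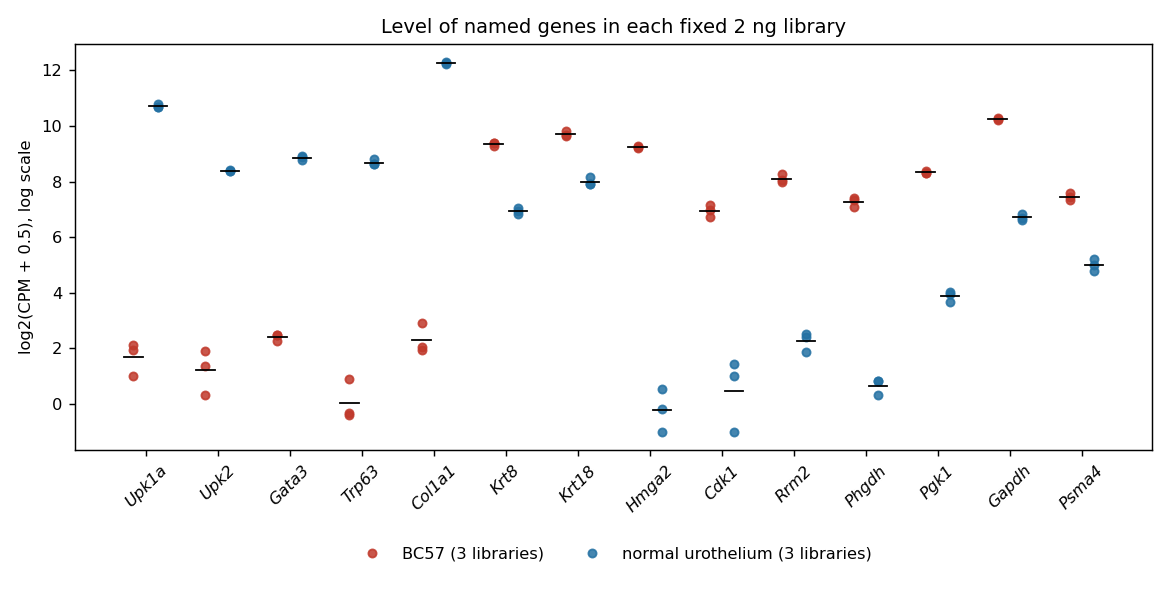
Level of 14 named genes in each fixed 2 ng library, as log2(CPM + 0.5) on the vertical axis, a log scale, with red points for the 3 BC57 libraries, blue points for the 3 urothelium libraries and a bar at each group's mean. The urothelial genes and Col1a1 are higher in every urothelium library and the other genes in every BC57 library, and the libraries of a group lie close together except near the lower end of the scale.

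The 10 genes with the largest rise and at least 20 CPM in BC57 were led by Cldn6, Cldn3, Serpinb2 and Hmga2. Cldn6, a claudin of embryonic epithelia (chr17:23679249-23682446, mm10), was at 418, 405 and 394 CPM in BC57 and at 0, 0.375 and 0 CPM in urothelium. With 1 count in the urothelium libraries, this is a ratio of 3612 (exact 95% counting interval 648 to 142706). Cldn3, another tight junction claudin, stood at 83.8, 64.2 and 62.5 CPM in BC57 with no count in urothelium, at least 208-fold higher if 3 counts are assumed for the whole urothelium group. Serpinb2, the plasminogen activator inhibitor of the clade B serpins, was at 332, 369.9 and 345 CPM against 0, 0 and 0.635 CPM, a ratio of 1551 (429 to 12815). All of these were abundant in each BC57 library and at or next to 0 in each urothelium library. Hmga2, an architectural chromatin factor made in embryos and many tumours (chr10:120361275-120476469), was at 592, 604 and 622 CPM in BC57 and at 0, 0.375 and 0.952 CPM in urothelium (log2 fold change 10.28, SE 0.18, edgeR adjusted p = 1.85e-47). Msln, the tumour antigen mesothelin, had a ratio of 985 (337 to 4777). The other genes of the 10 were Fgfbp1, Slc4a10, Elmod1, Ccbe1 and Bnc1. These intervals and bounds account for counting error alone, because PCR copies are not independent molecules.

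Among the 10 genes with the largest fall, 9 had no count in BC57. Fndc1, a fibronectin domain protein of connective tissue, was at 163, 162 and 150.1 CPM in urothelium and at least 576-fold lower in BC57. Igfbp5, a binding protein of insulin-like growth factors, was at 109, 99.7 and 103 CPM in urothelium and at least 381-fold lower. Robo1, the Slit receptor, and Fmo2, a flavin monooxygenase, were at least 282-fold and 274-fold lower. Plcb4, Ankfn1, Tmem229a, Igdcc4 and Cd200 were at least 478-fold, 432-fold, 353-fold, 286-fold and 282-fold lower. In the 250 pg libraries of fixed RNA, their log2 fold changes were -5.93, -9.86, -11.26, -7.14 and -11.1, in the same order. The bounds thus hold for the 2 ng libraries only, and those of Plcb4 and Igdcc4 were not reached at 250 pg. Plpp3, a lipid phosphatase, was at 0.272, 0 and 0 CPM in BC57 and at 274, 285 and 283 CPM in urothelium, a ratio of urothelium to BC57 of 3072 (551 to 121395). In all, 439 tested genes had no count in the 3 BC57 libraries (3.02%) and 87 had none in the 3 urothelium libraries (0.599%).

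The uroplakins and their plaque partners were lower in BC57 in 8 of 8 cases (background 40.3%), with a median log2 fold change of -6.88 against -0.07 over all genes. Upk3a, the uroplakin that spans the membrane once and pairs with Upk1b (chr15:85017141-85022547), was at 1.36, 0.899 and 0.508 CPM in BC57 and at 599, 526 and 516 CPM in urothelium, a log2 fold change of -9.17 (SE 0.16, edgeR adjusted p = 2.11e-47). Upk1a, a tetraspanin of the plaque, was at 3.81, 1.499 and 3.31 CPM against 1762, 1654 and 1656 CPM (-9.16 ± 0.12 SE). Upk2, its partner in the plaque, was at 3.26, 2.10 and 0.763 CPM against 332, 330.1 and 341 CPM (-7.35 ± 0.16). The groups lay far apart for these genes, and Snx31 (-9.06) and Upk3b (-6.41) fell too. Upk1b and Mal fell less. Upk1b, the other tetraspanin, was at 152, 130.4 and 162 CPM in BC57 and at 1116, 1141 and 1204 CPM in urothelium (-2.96). Mal, a sorting protein of apical membranes, was at 188, 190.4 and 204 CPM against 434, 423 and 431 CPM (-1.14), again with no overlap. The 250 bases upstream of the starts of Upk3a (chr15:85016891-85017140, plus strand) and Upk1a (chr7:30612735-30612984, minus strand) are shown because both genes fell to under 4 CPM in each BC57 library. They are RefSeq sequences on GRCm38.p6, 5′ to 3′, with CCAAT, read on either strand, in capitals. CCAAT was found for 1 of the 5 uroplakin and plaque genes with such a sequence (20%), against 37.5% of all genes.
Upk3a: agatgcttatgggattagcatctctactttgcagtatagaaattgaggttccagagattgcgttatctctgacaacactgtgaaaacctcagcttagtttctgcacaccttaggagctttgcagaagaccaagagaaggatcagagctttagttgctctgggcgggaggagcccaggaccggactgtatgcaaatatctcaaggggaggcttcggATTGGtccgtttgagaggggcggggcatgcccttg
Upk1a: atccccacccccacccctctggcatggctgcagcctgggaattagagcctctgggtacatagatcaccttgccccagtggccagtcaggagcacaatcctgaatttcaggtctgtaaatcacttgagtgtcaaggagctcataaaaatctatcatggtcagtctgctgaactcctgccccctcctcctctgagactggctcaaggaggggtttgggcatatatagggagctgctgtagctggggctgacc

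Luminal transcription factors were lower in 13 of 15 cases (background 40.3%), with a median of -2.89, and none was higher (background 36.7%). Gata3, which drives luminal differentiation, was at 4.35, 5.10 and 5.08 CPM in BC57 and at 436, 471 and 480.4 CPM in urothelium (-6.57 ± 0.12 SE). Tbx2, a T-box repressor, was at 0.544, 0.6 and 0 CPM against 183, 179 and 181 CPM (-8.81). Pparg (-3.47), the fatty acid receptor of luminal tumours, and Foxa1 (-2.89), a pioneer factor, also fell, and Foxa1 stayed at 55.5, 60.9 and 60.002 CPM in BC57. Grhl2 had 58.5, 57.3 and 71.95 CPM in BC57 and 68.4, 63.7 and 63.1 CPM in urothelium and did not pass the test, and neither did Rara, a retinoic acid receptor.

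The basal and squamous genes split, with 8 higher and 7 lower of 15 tested (background 36.7% and 40.3%). A further 4 had too few counts. Trp63, which encodes the basal factor p63 (chr16:25683763-25892102), was at 1.36, 0.3 and 0.254 CPM in BC57 and at 395, 397 and 446 CPM in urothelium (-9.25 ± 0.18 SE, edgeR adjusted p = 5.06e-45). Krt5, the keratin of urothelial basal cells, was at 4.89, 8.69 and 9.41 CPM against 366, 371 and 372 CPM (-5.58), and Krt15 (-7.36) and the cornified envelope gene Ivl (-7.43) fell as well. Krt14, the usual partner of Krt5, moved the other way, at 118, 136 and 132 CPM in BC57 and 1.94, 1.12 and 0.952 CPM in urothelium (6.54 ± 0.22). Krt6a, a keratin of wounded and squamous epithelium, was at 97.4, 88.1 and 96.9 CPM against 0.648, 0.375 and 0.317 CPM (7.60 ± 0.29). Krt16 and Dsc3, a desmosomal cadherin, had no count in urothelium and were at least 17.6-fold and 31.2-fold higher in BC57. The placental cadherin Cdh3 (4.69), Krt17 (4.38) and the hyaluronan receptor Cd44 (1.31) were higher too.

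Keratins of simple epithelia were higher in BC57 in 6 of 6 tested cases (background 36.7%), with a median of 1.74. Krt8 (chr15:101996698-102004482) was at 663, 623 and 664 CPM in BC57 and 123, 115 and 134 CPM in urothelium (2.39 ± 0.07 SE). Its filament partner Krt18 was at 895, 811 and 803 CPM against 289.6, 238 and 241 CPM (1.70 ± 0.07). Krt7 was at 1301, 1218 and 1219.9 CPM against 380.3, 339 and 376 CPM (1.77), and Krt80 at 50.3, 40.5 and 42.5 CPM against 1.30, 2.998 and 2.22 CPM (4.35). Krt20, the umbrella cell keratin, had overlapping libraries, at 51.4, 44.97 and 38.9 CPM and 39.8, 24.4 and 37.1 CPM (0.40 ± 0.16, adjusted p = 0.0217). The keratins higher in BC57 numbered 5 under upper quartile scaling, with limma, without BC57 library 1 or without urothelium library 2. Krt23 had too few counts to be tested, with 0 in each BC57 library and 5, 8 and 7 in urothelium. In the frozen 2 ng comparison 7 keratins were tested, with 4 higher and 2 lower (background 37.6% and 41.4%). The poly(A) comparison also gave 4 higher and 2 lower of 7 (background 42.8% and 48.5%). Under upper quartile scaling, and with limma on the deposited log2 values, 5 keratins were higher.

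Cell junction genes changed member by member. Of 16 claudin and tight junction genes tested, 10 were higher and 4 lower (background 36.7% and 40.3%). Cldn1 (2.28) and Cldn7 (2.30) rose beside Cldn6 and Cldn3, while Cldn8, a barrier claudin, was at 0, 0.3 and 0 CPM in BC57 and 169.7, 148 and 176 CPM in urothelium, a ratio of urothelium to BC57 of 1810.2 (324 to 71546). Of 17 desmosome and adherens genes, 9 were higher and 7 lower. Epcam, the epithelial adhesion molecule used as a tumour marker, was at 334, 364 and 354 CPM against 35.96, 39.3 and 38.7 CPM (3.21), and Pkp2, a plakophilin, rose by 3.10 log2 units. Desmoglein Dsg2 (-3.03) and Perp (-1.46) fell. Cdh1, which encodes E-cadherin, was at 231, 267 and 269.8 CPM in BC57 and 333, 317 and 310.3 CPM in urothelium (-0.32), a small change with separate groups.

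The urothelium libraries also carried RNA of the connective tissue under the epithelium. Summed over 12 fibroblast markers, the level was 30.8 to 36.7 CPM in BC57 and 14300.3 to 14432 CPM in urothelium. All 11 markers tested were lower in BC57 (background 40.3%). With 2 of them at 0 in BC57, their median was -9.82, or -8.06 with those genes at their bound. Lum, Pdgfrb and Dpt had no count in BC57. Col1a1, the main collagen chain, was at 7.07, 3.60 and 3.31 CPM in BC57 and 4997, 4833 and 4888 CPM in urothelium (-10.03 ± 0.10 SE), and Dcn, a collagen-binding proteoglycan, had means of 1.51 CPM in BC57 and 1355 CPM in urothelium (-9.82). Endothelial markers summed to 7.12 to 16.3 CPM in BC57 and 414 to 435 CPM in urothelium, with 12 of 12 lower in BC57, a median of -7.15 (-6.32 with 4 genes at their bound), and Vwf, Emcn, Tek and Cldn5 at 0 in BC57. Leukocyte markers summed to 12.97 to 17.4 CPM in BC57 and 186 to 208 CPM in urothelium, with 11 of 12 tested lower, and 10 of the 17 markers at 0 in BC57, among them Ptprc, Lyz2, Adgre1 and the complement genes C1qa, C1qb and C1qc. Smooth muscle markers summed to 51.3 to 60.6 CPM in BC57 and 514 to 537 CPM in urothelium, with 8 of 9 lower. Adipocyte markers summed to 1.78 to 5.98 CPM in BC57 and 107 to 121 CPM in urothelium, nearly all of it in urothelium Fabp4. Schwann and neural markers summed to 26.7 to 31.2 CPM in BC57 and 100.1 to 119 CPM in urothelium, most of it in urothelium Uchl1. Of these neural markers 4 were tested, with 2 higher and 2 lower in BC57 (median 0.45). Ncam1 and Tubb3 held 165 and 87 counts in BC57 against 21 and 0 in urothelium. Erythroid genes (4.83 to 10.2 CPM in BC57 and 11.1 to 13.3 CPM in urothelium) and skeletal muscle markers (9.59 to 13.1 CPM in BC57 and 12.4 to 15.4 CPM in urothelium) were low in both. The part of these cells in the urothelial values was not tested, and in bulk RNA fewer cells of a type and less RNA per cell cannot be told apart.

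Collagen genes, which those cells make in large amounts, were lower in 26 of 29 tested cases (background 40.3%), with a median of -4.30, and Col1a2 (-9.97) and Col3a1 (-9.83) fell like Col1a1. Laminins and integrins split into 9 higher and 10 lower of 21 (background 36.7% and 40.3%). The epithelial laminin chains Lama3 (1.29) and Lamb3 (1.13) and the laminin receptor subunit Itga3 (2.68) rose. Lama2, a laminin of muscle and mesenchyme, fell (-8.46), and Lama4 had no count in BC57, at least 249-fold lower. Of 17 mesenchymal transition genes, 13 were lower in BC57 and 2 higher, with Mmp2 (-9.21), Sparc (-6.59) and Zeb1 (-6.56) the lowest. Vim was at 136, 130.4 and 107 CPM in BC57 and 222, 228 and 210.4 CPM in urothelium (-0.82), with separate groups. Of 12 metalloprotease, plasminogen and inhibitor genes, 4 were higher, among them the urokinase receptor Plaur (3.27) and the inhibitor Timp1 (2.47), and 6 were lower; 8 were higher with no filter on low counts and 7 with DESeq2.

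Mitosis genes were higher in BC57 in 30 of 30 cases (background 36.7%), with a median of 5.22 and a range of 2.47 to 7.34, and the groups did not overlap in 30 of them, against 77.7% of all genes tested. Birc5, a subunit of the chromosomal passenger complex, was at 115, 127 and 104 CPM in BC57 and 0.324, 1.499 and 0.317 CPM in urothelium (7.34 ± 0.26 SE, edgeR adjusted p = 2.72e-32). Bub1, a spindle checkpoint kinase, was at 92.7, 95.6 and 102 CPM against 0.324, 0.749 and 0.635 CPM (7.34). Cdk1, the kinase that starts mitosis (chr10:69335146-69352938), was at 105, 127 and 142 CPM against 0, 1.499 and 2.22 CPM (6.61). BC57 libraries were all near or over 100 CPM for these genes while urothelium stayed under 3 CPM. Anln (6.41), which builds the cytokinetic ring, was at 647, 604 and 646 CPM in BC57 and 3.24, 10.5 and 8.88 CPM in urothelium, and the proliferation marker Mki67 (5.39) rose too.

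Many promoters of G2 and mitosis genes are known to hold a CCAAT box, bound by NF-Y, and a CHR element, bound by the DREAM complex. In the RefSeq windows of 250 bases upstream of the start (GRCm38.p6), CCAAT on either strand was found for 19 of 25 mitosis genes that matched the table (76%), against 37.5% of all 27025 genes. TTTGAA, the common CHR letters, was found on either strand for 9 of the 25 (36%), against 18.3% of all genes, and TATAAA for 1 (4%), against 14.3%. A match of one motif may share bases with another, and a match is not a measured site. The windows of Cdk1 (chr10:69352913-69353162, minus strand), with 3 CCAAT and 2 TTTGAA matches, Bub1 (chr2:127831860-127832109, minus strand), with 2 CCAAT matches, and Birc5 (chr11:117848987-117849236, plus strand) and Anln (chr9:22389207-22389456, minus strand), with no match of either, are printed as the 4 mitosis genes of largest rise, with CCAAT and TTTGAA on either strand in capitals.
Cdk1: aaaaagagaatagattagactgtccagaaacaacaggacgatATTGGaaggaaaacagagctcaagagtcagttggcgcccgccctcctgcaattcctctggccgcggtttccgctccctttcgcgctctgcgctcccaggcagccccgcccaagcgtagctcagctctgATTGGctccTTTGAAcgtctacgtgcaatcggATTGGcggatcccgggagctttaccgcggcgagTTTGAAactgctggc
Bub1: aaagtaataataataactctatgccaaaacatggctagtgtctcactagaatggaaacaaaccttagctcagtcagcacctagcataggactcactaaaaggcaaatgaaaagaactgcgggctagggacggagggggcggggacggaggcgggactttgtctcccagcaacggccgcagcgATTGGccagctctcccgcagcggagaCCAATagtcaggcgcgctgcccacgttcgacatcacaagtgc
Birc5: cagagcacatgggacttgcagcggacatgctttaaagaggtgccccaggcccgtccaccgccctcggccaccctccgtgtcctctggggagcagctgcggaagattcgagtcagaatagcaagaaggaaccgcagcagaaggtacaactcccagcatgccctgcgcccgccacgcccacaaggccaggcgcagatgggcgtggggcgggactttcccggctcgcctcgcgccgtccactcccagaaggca
Anln: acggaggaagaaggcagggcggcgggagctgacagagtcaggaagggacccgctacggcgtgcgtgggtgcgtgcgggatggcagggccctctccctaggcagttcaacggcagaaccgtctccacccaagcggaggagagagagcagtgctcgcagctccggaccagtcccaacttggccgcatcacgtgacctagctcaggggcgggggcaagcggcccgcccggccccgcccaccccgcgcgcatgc

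DNA replication genes were higher in 33 of 36 cases (background 36.7%), with a median of 3.05. Rrm2, the small subunit of ribonucleotide reductase, was at 253, 267 and 306 CPM in BC57 and 5.18, 4.87 and 3.17 CPM in urothelium (5.96 ± 0.15 SE). Mcm5 (5.30), a subunit of the replicative helicase, Pole (5.19), the leading strand polymerase, and the licensing factor Cdt1 (5.16) followed. Gins2, a subunit of the same helicase complex, went the other way, at 28.8, 28.2 and 31.3 CPM in BC57 and 84.2, 85.4 and 80.3 CPM in urothelium (-1.497 ± 0.13). Gins3 and Pold3 did not pass. Of 23 G1 cyclins, kinases and inhibitors, 17 were higher and 3 lower (background 36.7% and 40.3%). Cdkn2a, which encodes the inhibitors p16 and p19Arf, was at 49.2, 56.7 and 53.6 CPM against 0, 1.12 and 0 CPM, a ratio of 158 (53.7 to 766). Cyclin D1 (Ccnd1) was at 672, 627 and 671 CPM against 94.9, 96.3 and 89.8 CPM (2.81), and the pocket proteins Rb1 (-1.71) and Rbl2 (-1.03) were lower. The E2F family members E2f1 (4.72), E2f7 (5.13) and E2f8 (6.53) were higher. Among 16 p53 target genes, 6 were higher and 8 lower (background 36.7% and 40.3%). Trp53inp1 (-3.50) and Sesn1 (-1.68) were lower and Cdkn1a (0.82), the inhibitor p21, was higher.

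Replication-dependent histone genes were higher in 56 of 57 tested cases (background 36.7%), with a median of 4.93. These genes make the histones of newly copied DNA, and their mRNA ends in a stem-loop and not in a poly(A) tail. Hist1h3b was at 147, 127 and 116 CPM in BC57 and 0.324, 1.12 and 0.952 CPM in urothelium (7.30 ± 0.25 SE). Hist3h2ba was at 22.6, 17.7 and 13.7 CPM in BC57 with no count in urothelium, at least 53.2-fold higher. Hist1h1b (7.14) and Hist1h1a (6.69), linker histones, were among the largest of the rest. Hist2h2be, which also makes a polyadenylated form, was at 10.1, 12.3 and 18.8 CPM and 20.1, 17.99 and 9.84 CPM and did not pass. In the poly(A) libraries of frozen RNA, where 16370 of 17934 tested genes passed (91.3%; 42.8% higher and 48.5% lower), 20 histone genes passed the filter on low counts, with 5 higher, 12 lower and a median of -1.16. The difference between the kits was not tested. Histone genes are near-identical copies, so the split of reads between them is uncertain.

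Histone promoter windows matched for 53 of 62 genes, through older symbols in RefSeq. CCAAT was found in 43 (81.1%), TATAAA in 26 (49.1%) and TTTGAA in 24 (45.3%). The shares over the 27025 genes with a window were 37.5%, 14.3% and 18.3%. Both windows printed below hold CCAAT and TATAAA. Hist1h2bj, not printed, had 5 CCAAT matches and no TATAAA match. Hist1h4m, not printed, had 1 TATAAA match and no CCAAT match. The windows of Hist3h2ba (chr11:58948661-58948910, plus strand) and Hist1h3b (chr13:23752095-23752344, plus strand) are printed as a member with no count in urothelium and a member with counts in every BC57 library and in urothelium, with CCAAT and TATAAA on either strand in capitals.
Hist3h2ba: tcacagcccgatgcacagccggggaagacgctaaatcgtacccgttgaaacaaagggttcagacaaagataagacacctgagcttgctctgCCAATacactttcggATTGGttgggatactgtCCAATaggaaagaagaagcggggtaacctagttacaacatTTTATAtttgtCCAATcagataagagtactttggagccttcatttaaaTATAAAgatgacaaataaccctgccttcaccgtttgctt
Hist1h3b: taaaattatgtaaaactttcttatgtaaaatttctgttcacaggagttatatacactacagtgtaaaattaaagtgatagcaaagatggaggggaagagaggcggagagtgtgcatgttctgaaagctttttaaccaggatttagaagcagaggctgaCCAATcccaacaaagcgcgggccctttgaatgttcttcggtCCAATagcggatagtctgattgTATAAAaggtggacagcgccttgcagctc

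**Figure D2:**
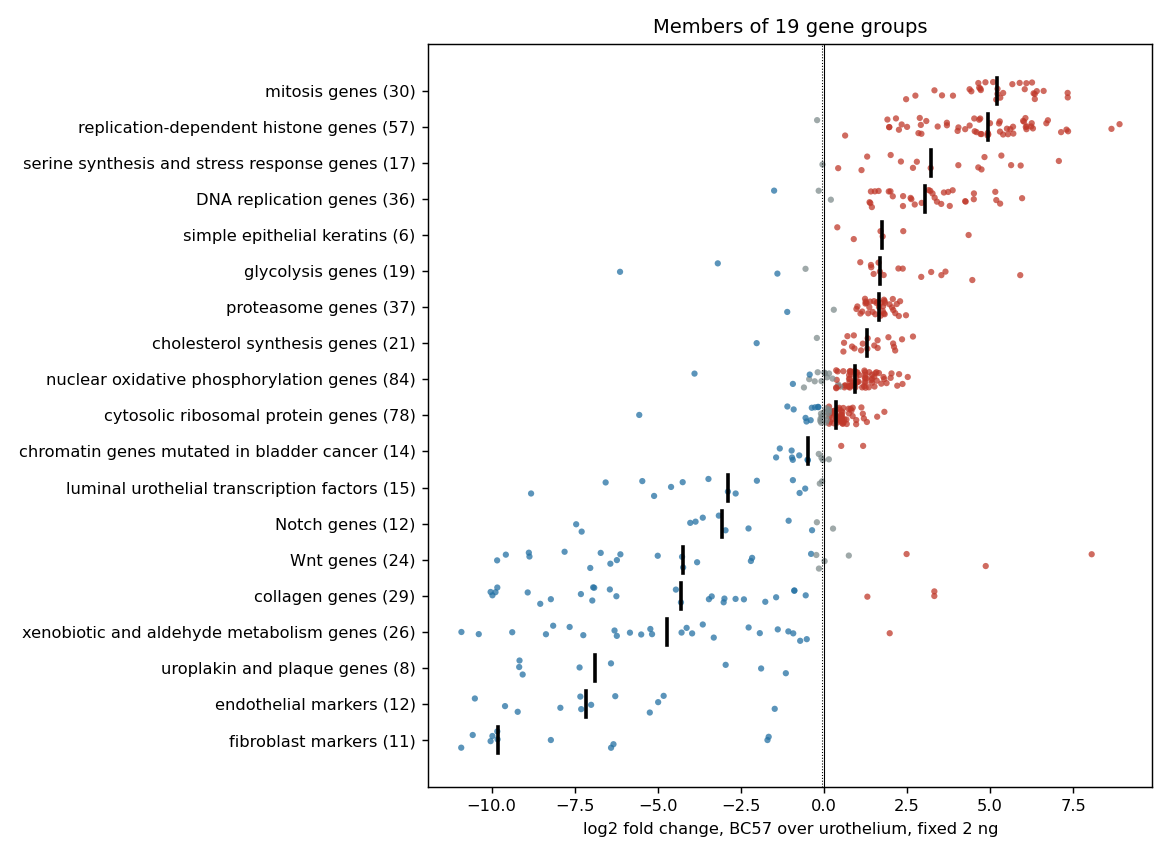
Log2 fold change of BC57 over urothelium in the fixed 2 ng libraries for the tested members of 19 gene groups (number in brackets), with red points for genes that passed the test as higher, blue as lower and grey as not passed, a thick bar at the group median and a dotted line at the median of all genes (-0.07). Mitosis and histone genes lie almost wholly to the right and the uroplakin, endothelial and fibroblast genes to the left, and genes with no count in a group are drawn at their fitted value, which is not a bound.

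Myc, the growth-promoting transcription factor, was at 252, 243 and 249 CPM in BC57 and 22.03, 16.5 and 19.4 CPM in urothelium (3.68 ± 0.11 SE). Its relative Mycl moved the other way (-4.92). Of 19 glycolysis genes, 15 were higher and 3 lower (background 36.7% and 40.3%, median 1.68). Slc16a1, the lactate transporter MCT1, was at 242, 259 and 276 CPM against 3.56, 7.12 and 2.54 CPM (5.91), Pgk1 at 319, 318 and 332 CPM against 15.2, 12.4 and 15.9 CPM (4.47), and Ldha rose by 3.23 log2 units. The lactate dehydrogenase subunit Ldhb was the exception by size, at 1.90, 1.499 and 1.53 CPM in BC57 and 127, 113 and 115 CPM in urothelium (-6.13). Eno2 (-3.19) and Hk1 (-1.40) were lower too, and Pfkm did not pass. Cholesterol synthesis genes were higher in 19 of 21 cases, with a median of 1.31, from Pmvk (2.68) to Nsdhl (0.59), and Tm7sf2, a sterol reductase, was lower (-2.02).

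Serine synthesis and amino acid stress genes, which the transcription factor Atf4 switches on, were higher in 16 of 17 cases (background 36.7%), with a median of 3.21. Phgdh, which commits glycolytic carbon to serine, was at 170.0, 136 and 161 CPM in BC57 and 1.30, 0.749 and 1.27 CPM in urothelium (7.07 ± 0.22 SE). Psat1, the next enzyme, was at 409.5, 439 and 437 CPM against 12.6, 6.75 and 11.7 CPM (5.34), and Mthfd2 (5.92), of mitochondrial folate metabolism, and the transporter Slc7a5 (4.65) rose too. Sesn2 had means of 21.9 CPM in BC57 and 22.5 CPM in urothelium and did not pass. AP-1 and immediate early genes were higher in 12 of 14 cases, led by Atf3 (5.63) and Fosl1 (4.88), with Fosl2 lower (-2.42). Among 15 heat shock genes, 9 rose and 3 fell (background 36.7% and 40.3%). Hsp90aa1, an inducible chaperone, was at 1135, 1096 and 1238 CPM against 80.3, 90.7 and 94.9 CPM (3.71), whereas Hspa1a (-3.56) and the small heat shock protein Hspb8 (-4.24) fell. NRF2 target genes were mixed, with 8 higher and 3 lower of 16, and Nqo1 lower (-3.96) beside a higher Hmox1 (2.13).

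Protein-making and protein-clearing machinery rose by smaller amounts in most members. Proteasome genes were higher in 35 of 37 cases (background 36.7%), with a median of 1.66. Psma4, a core subunit, was at 161, 174 and 191 CPM in BC57 and 27.2, 36.7 and 31.4 CPM in urothelium (2.47), and the immune subunit Psmb9 was lower (-1.10), a call lost without BC57 library 2, BC57 library 3 or urothelium library 2. Mitochondrial ribosomal protein genes were higher in 65 of 77 cases (median 1.26), nuclear genes of oxidative phosphorylation in 69 of 84 (median 0.94), splicing factors in 23 of 28 (median 0.68) and cytosolic ribosomal protein genes in 55 of 78 (median 0.37). Ndufa4l2, a low-oxygen form of a respiratory subunit, was the lowest of the nuclear respiratory genes (-3.89). Of 13 genes often used as internal references, 12 were higher in BC57, with a median of 1.42. Gapdh was at 1254, 1208 and 1186 CPM against 102, 98.9 and 113 CPM (3.54 ± 0.07 SE) and Actb rose by 2.47 log2 units (SE 0.05). Tbp had 70.7, 71.4 and 83.1 CPM in BC57 and 58.96, 64.8 and 68.9 CPM in urothelium and did not pass. Among 14 chromatin genes often mutated in bladder cancer, 8 were lower and 2 higher (background 40.3% and 36.7%, median -0.49). Kmt2d, a histone methyltransferase, was at 153, 145 and 144 CPM against 401, 413 and 384 CPM (-1.44), and Ezh2, the Polycomb methyltransferase, was higher (1.18).

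Hedgehog, Wnt and Notch genes were mostly lower in BC57 (background 40.3%). The fibroblast markers moved with them, at 30.8 to 36.7 CPM in BC57 and 14300.3 to 14432 CPM in urothelium, and their part in these values was not tested. Shh, the hedgehog ligand made by urothelial basal cells, was at 0, 0.3 and 0 CPM in BC57 and 234, 227 and 241 CPM in urothelium, a ratio of urothelium to BC57 of 2565 (459.8 to 101348). Its receptor and target Ptch1 (-3.41), the target Gli1 (-3.54) and the antagonist Hhip (-5.36) also fell, and 7 of 9 hedgehog genes were lower in all. Gli3 was higher (1.95), and the signal transducer Smo had means of 63.2 CPM in BC57 and 62.1 CPM in urothelium and did not pass. Wnt genes were lower in 17 of 24 cases, with a median of -4.25. The ligand Wnt5a was at 1.36, 2.40 and 2.03 CPM against 377, 439 and 494 CPM (-7.80), and the feedback targets Axin2 (-4.27) and Lgr5 (-6.23) fell. The ligands Wnt10a (4.87) and Wnt7b (2.49) rose, and Wnt7a, with no count in urothelium, was at least 29.8-fold higher. Of 12 Notch genes, 10 fell (median -3.06), including the receptor Notch1 (-3.64) and the ligand Jag1 (-3.16).

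EGF receptor family genes and ligands had 7 members higher and 4 lower of 11 (background 36.7% and 40.3%). Ereg, encoding epiregulin, was at 82.9, 103 and 94.6 CPM in BC57 and 0, 0.749 and 0.952 CPM in urothelium (7.29 ± 0.29 SE). Hbegf (5.56), Areg (5.16) and Btc (2.86), further ligands, were higher, and Tgfa was lower (-0.72). Egfr itself was at 159, 160.1 and 170.3 CPM against 99.8, 131 and 105 CPM (0.55), whereas Erbb2 (-1.25) and Erbb3 (-2.32) fell. FGF receptors Fgfr1 (-4.02), Fgfr2 (-3.01) and Fgfr3 (-2.24) were all lower, in a list with 4 higher and 8 lower of 12. The IGF system had 11 of 13 members lower and 2 higher, the latter Igfbp3 (2.81) and Igf2r (0.95).

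Xenobiotic and aldehyde metabolism genes were lower in 25 of 26 cases (background 40.3%), with a median of -4.73. The part of the connective tissue cells in these values was not tested. Gstm1, a glutathione transferase, was at 33.99, 26.1 and 28.2 CPM in BC57 and 8469, 8343 and 8273 CPM in urothelium (-8.15 ± 0.08 SE). Ugt1a6a (-7.65), a glucuronosyltransferase, and Adh1 (-5.84), an alcohol dehydrogenase, fell strongly, and Gstp1 was the member that rose (1.98). The retinoid list, which shares Aldh1a1, Aldh1a2 and Aldh1a3 with it, had 10 of 14 members lower, among them Dhrs3 (-6.00) and Rarb (-4.50), and 2 higher, Dhrs9 (5.19) and Crabp1, which had no count in urothelium.

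Immune and secreted genes gave mixed counts, against 36.7% higher and 40.3% lower over all genes tested. MHC class II genes were lower in 5 of 6 cases, with H2-Ab1 and H2-Eb1 at 0 in BC57, where the leukocyte markers above were also low. MHC class I and antigen processing genes were higher in 9 of 13 cases, with B2m at 809, 831 and 739 CPM in BC57 and 525, 550.1 and 527 CPM in urothelium (0.57), while the transporter Tap1 (-1.10) and the regulator Nlrc5 (-1.40) were lower. Of 14 interferon-stimulated genes, 3 were higher, led by Bst2 (3.27), and 7 were lower. Of 8 chemokine genes tested, 5 were higher and 2 lower. Cxcl5 and Cxcl1 had no count in urothelium and were at least 62.7-fold and 15.2-fold higher, and Cxcl2 had a ratio of 326 (89.9 to 2696). Cxcl12 (-7.12) and Cxcl14 (-6.32) were lower. Of 10 acute-phase and antimicrobial genes tested, 5 were higher and 4 lower, and Ltf, encoding lactoferrin, and Slpi had no count in urothelium and 18.1 and 17.3 CPM in BC57. Clade B serpins were higher in 6 of 8 cases, and of 4 gasdermin genes tested 3 were lower, with Gsdme, at means of 36.9 CPM in BC57 and 42.6 CPM in urothelium, not passing.

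Developmental genes moved in both directions, against 36.7% higher and 40.3% lower over all genes tested. Of 23 Hox genes tested, 8 were higher and 11 lower, near those shares. Hoxb9 was at 288, 303 and 293 CPM in BC57 and 2.59, 4.87 and 7.30 CPM in urothelium (5.89), while Hoxa9 (-5.59) and Hoxa10 (-5.61) fell and Hoxa11 was at 0 in BC57. Of 9 endodermal and related factors, 7 were lower and 2 higher. Gata4 had 15.5, 20.7 and 17.03 CPM in BC57 and no count in urothelium, at least 52.4-fold higher, and Sox9 was higher (1.69), whereas Gata5 was at 0 in BC57 and 38.5, 43.5 and 41.6 CPM in urothelium. Of 12 oncofetal and tumour surface genes, 7 were higher, among them Hmga1 (3.02) and Igf2bp1 (3.25), and 3 were lower. Imprinted genes were lower in 11 of 17 cases and higher in 3. Peg3 was at 0.272, 1.199 and 0.254 CPM in BC57 and 551, 602 and 614 CPM in urothelium (-9.97 ± 0.17 SE), and Meg3, a noncoding RNA of the Dlk1 domain, was at 0.816, 0.3 and 0 CPM against 253, 273 and 249 CPM (-9.32). Mest was higher (2.45).

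Small noncoding RNAs were also read in these libraries. Small nucleolar and Cajal body RNAs guide the modification of ribosomal and spliceosomal RNA. They split evenly, with 32 higher and 31 lower of 92 (background 36.7% and 40.3%) and a median of 0.01. Snord34 (4.01) and Snord52 (3.79) were among the largest rises. Among 13 polymerase III and spliceosomal RNAs, 4 were higher and 6 lower. The transcription regulator Rn7sk was at 7736, 7201 and 6184 CPM in BC57 and 11521, 11531 and 10298 CPM in urothelium (-0.66), and Rmrp, the RNA of the RNase MRP enzyme, at 5472, 4707 and 3964 CPM against 3716, 3295 and 2667 CPM (0.55). Rmrp overlaps Ccdc107 in the annotation, and strand use in the counting is not given, so reads of overlapping genes cannot be told apart. Small nuclear and nucleolar RNA together took 1.47% to 1.54% of the counts in BC57 and 2.05% to 2.48% in urothelium.

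The same BC57 and urothelium samples in frozen form gave 10291 called genes of 13018 tested (79.1%), 37.6% higher and 41.4% lower, from libraries of 1843795 to 2300831 counts. The 2 comparisons share no library. Of 12905 genes tested in both, 9177 passed in both, and 9117 of these had the same direction (99.3%). The log2 fold changes correlated over genes (Pearson r 0.966, Spearman rho 0.961), a description over genes that share libraries. The difference between both comparisons was tested as an interaction over 12 libraries. For this test the 12 libraries were scaled together, so the CPM given below for a fixed library beside frozen ones differ slightly from its CPM above. The difference passed for 857 of 14527 genes (5.9%), of which 619 had a higher BC57 to urothelium ratio in the fixed libraries (4.26%) and 238 a lower ratio (1.64%), and 326 differed by at least 2-fold (2.24%). With limma on the deposited log2 values the split was 993 to 136, so that 88.0% were higher in place of 72.2%, and the median difference over all genes moved by 0.14 log2 units. Extraction kits differed with preservation per the labels, so fixation and extraction cannot be told apart.

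**Figure D3:**
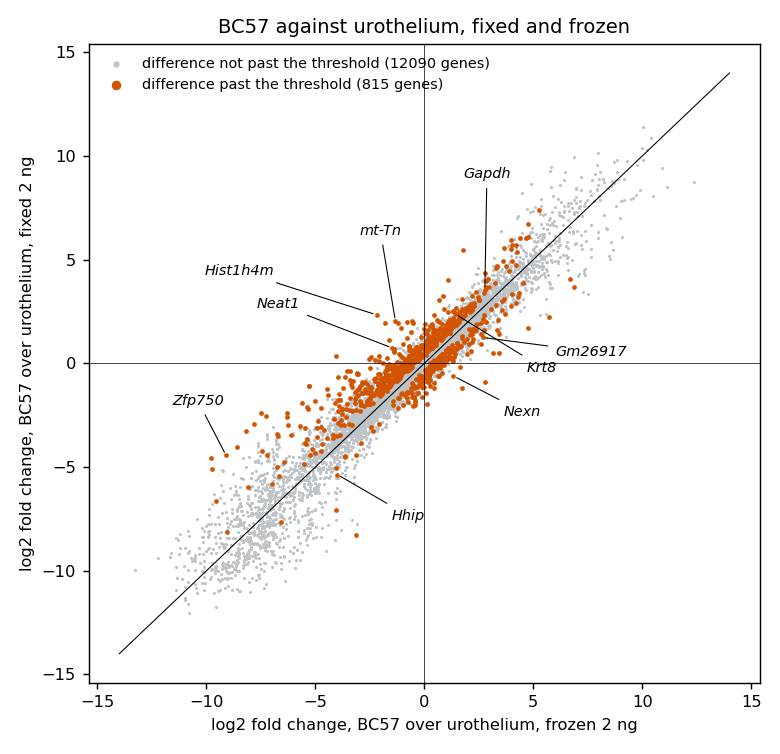
Log2 fold change of BC57 over urothelium in fixed 2 ng libraries (vertical axis) against frozen 2 ng libraries (horizontal axis), with 1 point per gene for the 12905 genes tested in both and a diagonal line where both are equal. Orange points are the 815 of these genes whose difference passed the test, and most lie on the same side of 0 on both axes while Neat1, mt-Tn, Hist1h4m and Nexn do not.

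Among the genes of largest difference was Zfp750, a regulator of epidermal differentiation. Zfp750 was at 1.67, 2.13 and 4.93 CPM in the fixed and 0.421, 0 and 0 CPM in the frozen BC57 libraries, and at 61.2, 68.998 and 67.9 CPM in the fixed and 115, 102 and 108 CPM in the frozen urothelium libraries. It was low in every BC57 library and lower in the frozen ones, which held 1 count in all, a difference of 4.71 log2 units (SE 0.80, edgeR adjusted p = 3.20e-05). Sytl1, Dnase1l2 and She had no count in frozen BC57, so their fitted differences (5.51, 4.98 and 4.86) depend on the prior count and are no bound. Fixed BC57 libraries held 1.12, 1.52 and 0.778 CPM of Sytl1, 0.558, 1.52 and 0.778 CPM of Dnase1l2 and 2.23, 0.607 and 2.08 CPM of She. In the other direction, the spliceosomal RNA Rnu5g was at 28.2, 22.5 and 33.2 CPM in BC57 and 73.7, 71.3 and 53.002 CPM in urothelium when fixed. In the frozen libraries it was at 4.21, 3.56 and 2.16 CPM in BC57 and 0, 0.509 and 0.865 CPM in urothelium, a difference of -3.88 (SE 0.71). Every fixed library was above every frozen one, and urothelium was the higher sample when fixed and the lower one when frozen. The frozen values of Rnu5g rest on few counts, and the gene was not tested in the frozen comparison alone. The nucleolar RNA Snord118 was at 71.4, 62.2 and 47.2 CPM in fixed BC57 and 39.02, 37.6 and 23.3 CPM in fixed urothelium, and at 6.74, 5.79 and 3.46 CPM and 0.536, 0.509 and 0 CPM in the frozen libraries (-2.99 ± 0.81). S1pr1 (-2.99), a receptor of endothelial cells, rested on few counts in BC57, and Snora28 (-1.63) completed the list. The calls of Dnase1l2, She, Snord118, S1pr1 and Snora28 were lost on leaving out 4, 4, 2, 8 and 1 of the 12 libraries in turn, and S1pr1 ranged from -3.39 to -1.91 on leaving out 1 library.

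Some genes changed direction between the fixed and frozen comparisons, with 56 called in both comparisons with opposite signs and a difference that passed. Neat1, the RNA scaffold of paraspeckles (chr19:5824708-5845478), was at 2758, 2788 and 2983 CPM in fixed BC57 and 1725, 1689 and 1742 CPM in fixed urothelium, and at 185, 186 and 206 CPM in frozen BC57 and 517, 527 and 521 CPM in frozen urothelium. BC57 was thus the higher sample when fixed and the lower one when frozen, with log2 fold changes of 0.74 and -1.47 and a difference of 2.16 (SE 0.09, edgeR adjusted p = 1.80e-27). Malat1, another nuclear RNA, was lower in BC57 in both, at -2.22 fixed and -3.77 frozen, a difference of 1.51. Airn (3.14) and Firre (1.25), also nuclear RNAs, differed the same way, so that 4 of 10 nuclear noncoding RNAs passed (background 5.9%). Airn overlaps Igf2r. Nexn, an actin-binding protein of muscle, was at 23.4, 33.1 and 19.7 CPM in fixed BC57 and 33.6, 42.6 and 40.7 CPM in fixed urothelium. In the frozen libraries Nexn was at 30.3, 33.9 and 34.1 CPM in BC57 and 12.3, 12.2 and 13.4 CPM in urothelium, so that the order of the samples turned (-1.99 ± 0.27). Hist1h4m was higher in BC57 when fixed (2.34) and lower when frozen (-2.19), the 1 histone gene that was lower in the frozen comparison. Of 58 histone genes in the interaction, 16 had a larger ratio in the fixed libraries and none a smaller one, and the list medians were 4.93 fixed and 4.05 frozen.

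Simple keratins had a larger BC57 to urothelium ratio when fixed in 6 of 7 cases (background 4.26%). Krt8 was at 681, 631 and 678 CPM in fixed BC57 and 128, 119 and 136 CPM in fixed urothelium, and at 1239, 1250.2 and 1139 CPM and 492, 436 and 421 CPM in the frozen ones, a difference of 0.95 (SE 0.10). BC57 was the higher sample in both, and both samples held more Krt8 when frozen. Krt19 was higher in BC57 only by the fixed comparison, at 0.90 fixed and -0.06 frozen, and the difference of 0.92 passed (adjusted p = 1.11e-09). Krt20 had opposite signs, 0.40 fixed and -0.45 frozen. Krt18 (0.95), Krt7 (0.65) and Krt80 (1.53) kept their direction. Of 17 desmosome and adherens genes 7 differed this way, of 37 proteasome genes 9, of 26 xenobiotic genes 8 and of 15 heat shock genes 6, and none of these lists had a member that differed the other way. Of 8 uroplakin and plaque genes 1 differed in either direction, of 30 mitosis genes 2 and of 36 replication genes 1 (background 5.9%).

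Mitochondrially encoded RNA changed order between fixed and frozen libraries. It took 12.1% to 13.1% of the counts in fixed BC57 and 10.5% to 10.7% in fixed urothelium, but 4.29% to 4.40% in frozen BC57 and 8.45% to 8.77% in frozen urothelium. BC57 was therefore the higher sample in all fixed libraries and the lower one in all frozen libraries. Of 23 mitochondrial tRNA and rRNA genes tested, 18 were higher in BC57 in the fixed comparison and 2 lower (background 36.7% and 40.3%). In the frozen comparison 4 were higher and 14 lower (background 37.6% and 41.4%). The difference passed for 20, all in the same direction (background 5.9%). The large ribosomal RNA mt-Rnr2 was at 37876, 37604 and 37104 CPM in fixed BC57 and 29803, 29108 and 28684 CPM in fixed urothelium, and at 9558, 9822 and 9969 CPM and 19193, 20269 and 20620.0 CPM in the frozen ones (difference 1.40, SE 0.07). The asparagine tRNA mt-Tn had a log2 fold change of 2.02 fixed and -1.33 frozen (difference 3.31). Of the 13 protein genes, 5 were higher and 4 lower when fixed, with a median of -0.02, against 3 higher and 8 lower when frozen, with a median of -1.34, and the difference passed for 9. Only 3 were higher when fixed under upper quartile scaling, with limma, or without BC57 library 2, and 2 were lower without BC57 library 3. The complex I genes mt-Nd1 (1.16 fixed, 0.27 frozen) and mt-Nd2 (1.27 and 0.24) had larger ratios when fixed, while the difference of mt-Nd3 did not pass (2.11 and 1.85).

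**Figure D4:**
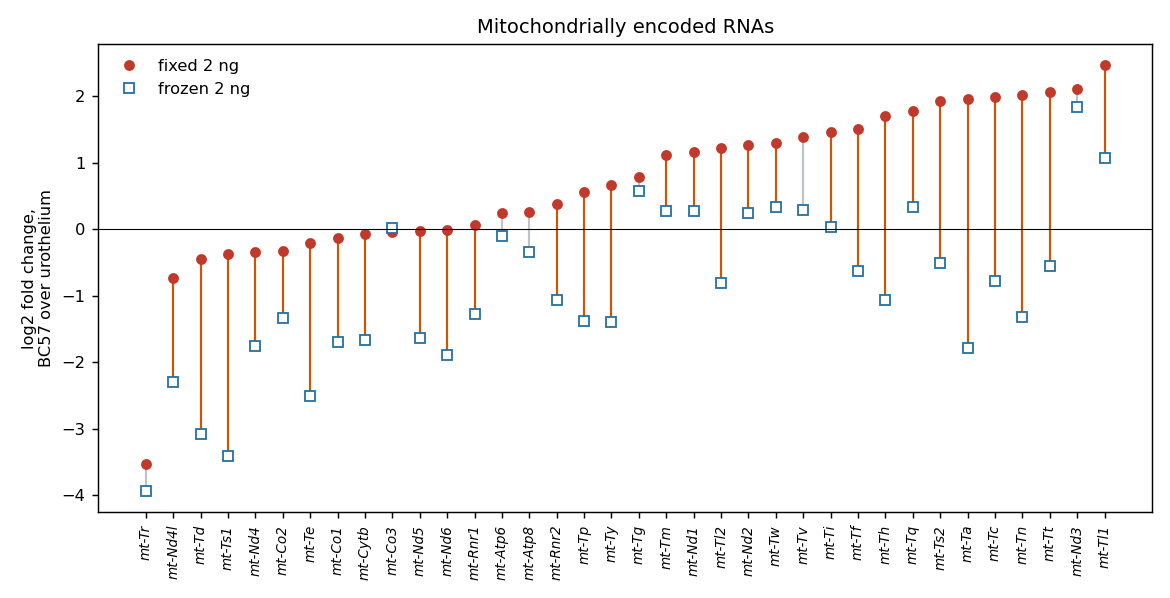
Log2 fold change of BC57 over urothelium for the 36 mitochondrially encoded RNAs tested, ordered by the fixed value, with red circles for fixed 2 ng and open blue squares for frozen 2 ng libraries. Orange lines join values whose difference passed the test and grey lines those that did not, and nearly all red circles lie above their squares.

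Ribosomal-repeat-like genes, which collect reads of residual ribosomal RNA, also differed with preservation. Gm26917 had a smaller ratio in the fixed libraries (1.25 fixed, 2.68 frozen, difference -1.47), while Gm42418 (0.87), Gm23935 (0.65) and Lars2 (0.88) had larger ones. Gm42418 took 2.99% to 4.15% of the counts in the 5 of 6 fixed 2 ng libraries where no gene had more counts. Their part in the other differences was not tested.

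At 250 pg of the same fixed RNA, 7374 of 14126 tested genes passed (52.2%), 24% higher and 28.2% lower, from libraries of 2947650 to 4706030 counts. Repeat libraries were less alike at this input, with a chi-square per degree of freedom of 7.29 to 11.8. The difference between the 2 ng and 250 pg comparisons passed for 0 of 15805 genes (0%) in the edgeR fit, with 1062 genes at an unadjusted p under 0.05 (6.72%) and a smallest adjusted p of 0.1253. In that fit, the genes of smallest adjusted p were Ccnb1 (difference -5.99) and Il17rd (6.21). DESeq2 also called 0, and limma on the deposited log2 values called 6. The fold changes of some leading genes are given for both inputs. Upk3a was at -9.17 with 2 ng and -7.44 with 250 pg, Gata3 at -6.57 and -6.52, Krt8 at 2.39 and 2.27, Rrm2 at 5.96 and 6.52, and Gstm1 at -8.15 and -8.08. Mitosis genes were higher in 30 of 30 cases at 250 pg too (background 24%), with medians of 5.22 and 5.17, and 18 of 23 mitochondrial tRNA and rRNA genes were higher, with medians of 1.30 and 1.43. A difference that does not pass does not show that both inputs give the same values.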

How the data were processed

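The authors deposited raw counts per gene for each library and a table of log2 values made from them. Reads were aligned with STAR, handled with SAMtools and counted with featureCounts on mm10, per the submitters' processing notes; versions, gene annotation and the use of strand are not stated in the sources used. The deposited log2 values equal log2(1000 × count / upper quartile of nonzero counts + 1) to within 5.2e-14 and served only as an alternative. Symbols and coordinates came from GENCODE M21, which matched 37693 of 39179 genes. The other 1486 genes took 1.03% to 1.21% of a fixed 2 ng library and stayed in the tests.

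Low counts were removed with filterByExpr and libraries scaled by TMM. Genes were tested by quasi-likelihood in edgeR 4.0.16 under R 4.3.3, with Benjamini-Hochberg adjustment over all genes tested and a threshold of 0.05. The main fit used the 6 libraries, and each difference was an interaction contrast over 12. Fold changes are those of the fit at its default prior count of 0.125. Where a group held no count of a gene, its fold is a bound that assumes 3 counts in that group, and at 1 to 3 counts a CPM ratio with an exact 95% interval is printed. DESeq2 1.42.0, limma 3.58.1, other scalings and filters, thinning to equal depth (seed 117), a replicate block and leaving out each library were alternatives. The steps were checked on simulated counts.

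The rule for named genes took, in each direction, the 10 largest fold changes at an adjusted p under 0.05, at least 20 CPM in the higher group and no overlap between libraries, leaving out predicted genes, clone names and pseudogenes. It added Gapdh, Actb and Upk2, up to 4 members with the largest change from each of 62 lists, and for a difference 5 genes in each direction. Other list members named were chosen after their values were seen, and some genes that the rule took are not reported here. The members and lists were chosen with earlier results of these data known. Replicate numbers were not used as pairs. Promoter windows were taken from RefSeq, leaving out those on chromosome 18.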

Additional observations from a re-analysis of the deposited data

Results flagged for a closer look

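The BC57 to urothelium ratio differed between fixed and frozen 2 ng libraries, by a test of the difference itself, for 857 genes, and the named genes among them are listed here with the log2 difference (fixed minus frozen). Among the genes of largest difference, the values were 5.51 for Sytl1, 4.98 for Dnase1l2, 4.86 for She, 4.71 for Zfp750 and 4.49 for Hist1h4m. In the other direction they were -3.88 for Rnu5g, -2.99 for Snord118, -2.99 for S1pr1, -1.99 for Nexn and -1.63 for Snora28.

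Epithelial genes with such a difference were Krt80 (1.53), Krt8 (0.95), Krt18 (0.95), Krt7 (0.65) and Epcam (0.71). Growth, metabolism and reference genes were Myc (0.79), Pgk1 (0.55), Slc7a11 (1.18), Hsp90aa1 (0.70), Psmb3 (0.61), Psmd2 (0.54), Uqcrq (0.72), Gapdh (0.72) and Actb (0.33). Signalling, stromal and chromatin genes were Hhip (-1.41), Fgf1 (1.40), Fabp4 (1.74), Kmt2d (0.61) and Kmt2c (0.51), beside the telomerase RNA Terc (2.20). Mitochondrial RNAs were mt-Nd2 (0.98), mt-Nd1 (0.85), mt-Nd4l (1.52), mt-Tl1 (1.35), mt-Tt (2.57) and mt-Tn (3.31). Ribosomal-repeat-like genes were Gm26917 (-1.47), Lars2 (0.88), Gm42418 (0.87) and Gm23935 (0.65).

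Of these 40 named genes, 26 passed under every alternative run and 14 did not under at least one. Leaving out 1 of the 12 libraries ended the call for Dnase1l2 in 4 cases (highest edgeR adjusted p 0.0755), She in 4 (0.0721), Snord118 in 2 (0.102), S1pr1 in 8 (0.474), Snora28 in 1 (0.0838), Krt80 in 2 (0.0649) and Pgk1 in 5 (0.134). The same held for Slc7a11 in 1 (0.103), Fgf1 in 6 (0.166), Fabp4 in 1 (0.2), Terc in 7 (0.168), Psmb3 in 7 (0.176), Psmd2 in 1 (0.0551) and Uqcrq in 5 (0.136). S1pr1 was -1.91 without frozen BC57 library 1, and Fabp4 was 1.10 without fixed BC57 library 1.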

How the results depend on the processing

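The count of genes that differed between BC57 and urothelium kept its size under every alternative run, from 10715 (limma on the deposited log2 values) to 13278 (no filter on low counts, 26025 genes tested), and from 11140 to 11329 without 1 library. The difference between fixed and frozen passed for 688 to 1129 genes under the alternatives and for 672 to 823 without 1 library. No gene called in either passed in the opposite direction under an alternative. The difference between 2 ng and 250 pg moved from 0 to 17 without a filter and to 6 with limma, and to between 0 and 1 without 1 library, where the library left out was urothelium 1 at 2 ng or BC57 2 at 250 pg; the cause was not tested. With limma the median fold change of all genes shifted by -0.14 and that of the fixed to frozen difference by 0.14. With the replicate number as a block, 11005 genes passed in the main comparison, 1001 in the fixed to frozen difference and 0 in the input difference. The labels do not say whether the numbers pair the libraries. Deviations of same-numbered libraries correlated at 0.00827 to 0.0394 in the main comparison, for each BC57 library above those with the other urothelium numbers, which is a hint from the data and not the design. They correlated at 0.00724 to 0.119 over the 12 fixed and frozen libraries, where 1 pair exceeded 0.1, and at -0.0181 to 0.0406 over those of both inputs. No fold change of a gene named by the rule lost its call, and Gsdme (limma, -0.36) and Alas2 (without BC57 library 2, -1.01) gained one. Of the counts of list members under the alternatives, 1703 stayed within 1.5 times and 33 did not, all of them counts of at most 5 as reported. With 3 libraries in a group, samples were not tested for standing apart, and at 1 to 5 CPM the median standard error was 0.50 log2 units.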

Other observations

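Xist, the noncoding RNA that silences an X chromosome in female cells, was at 865, 966 and 925 CPM in BC57 and 2.92, 9.37 and 5.71 CPM in urothelium (log2 fold change 7.29, SE 0.13). Genes of the Y chromosome were also read in both samples. Of 5 that were tested, 4 were lower in BC57, among them Ddx3y at 20.9, 26.1 and 24.4 CPM against 92.6, 81.3 and 104 CPM (-1.96), and Gm47283 was higher (0.79). The labels do not give the sex of the cell line or of the mice.

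Median fold changes differed from chromosome to chromosome. Leaving out the Y chromosome with its 5 tested genes, the 3 lowest medians over tested genes were -0.49 on chromosome 1, -0.47 on chromosome 4 and -0.50 on chromosome 14, and the 3 highest were 0.26 on chromosome 8, 0.24 on chromosome 13 and 0.28 on chromosome 17, against -0.07 over all genes. In the frozen libraries the same medians were -0.40, -0.43, -0.53, 0.29, 0.27 and 0.15, and in the poly(A) libraries -0.31, -0.36, -0.47, 0.36, 0.08 and 0.27, so that chromosome 13 was nearer to 0 there. Histone genes such as Hist1h3b and Hist1h2bj lie on chromosome 13, and their part in its median was not tested. No test was run on these medians, since genes of a chromosome are not replicates.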
